A study of Saccharomyces cerevisiae with 18 samples.

Results

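Transcript levels in 2 amylase-secreting strains of Saccharomyces cerevisiae, AAC and AAP, were compared in cultures grown without oxygen. The 3 anaerobic AAC arrays and the 3 anaerobic AAP arrays were taken by their titles from 18 arrays in all, and every S. cerevisiae probe set with 1 gene was used. In AAC the genes of the respiratory chain, of the stress and mating responses and of protein folding in the endoplasmic reticulum were mostly higher than in AAP. Genes for making ribosomes, for the glycine cleavage system and for purines and pyrimidines were mostly lower. The largest difference was in DET1, the neighbour of TPI1 on the chromosome, at 19.3 times the AAP level in AAC.

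All strains shared the host CEN.PK 530-1C, a laboratory strain that lacks its own triose phosphate isomerase gene TPI1, and carried a 2 μm plasmid with the selection gene POT1, the isomerase gene tpi1 of fission yeast. In AAC the TPI1 promoter drove amylase fused to the alpha factor leader, and its source label calls it a high producer. AAP carried the same fusion under the TEF1 promoter and is labelled as producing less. The third strain, NC, held a plasmid with the TPI1 promoter and no amylase, and its 3 anaerobic arrays served as the reference for both. Cultures of 500 ml were stirred in a buffered synthetic medium at 30 °C and harvested at an optical density of about 1, and total RNA was hybridised to Affymetrix yeast arrays. Each group had 3 arrays, labelled as biological replicates, and amylase itself has no named probe set and was not measured here.

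Yeast lacking triose phosphate isomerase cannot grow well on glucose, so a plasmid that carries an isomerase gene is kept without an antibiotic or an amino acid marker. A secreted protein with an alpha factor leader enters the endoplasmic reticulum, where Kar2 (the BiP chaperone), Pdi1 (protein disulfide isomerase) and Ero1 (the oxidase that recharges Pdi1) fold it. Misfolded protein there activates the kinase Ire1, which splices the mRNA of the transcription factor Hac1. Ero1 passes electrons to oxygen, and yeast without oxygen must use another acceptor for them.

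Levels are the deposited values, read as log2, and differences are AAC minus AAP with the standard error of the limma fit. A probe set was called when its adjusted p was under 0.05 (limma, Benjamini-Hochberg over 5498 probe sets). The level called background was the 95th percentile of 1747 fission yeast probe sets, 5.56 to 5.60 log2 units on the anaerobic arrays. Array medians ran from 7.08 to 7.12, and 90.0% to 91.5% of the tested probe sets were above background on each anaerobic array. AAC replicate 3, with NC replicates 2 and 3, stood apart on a control probe set for 25S ribosomal RNA, at 9.31 to 10.67 log2 units against 6.49 to 8.05 on the other anaerobic arrays. These arrays were also lower on the BioC spike-in, at 7.02 to 7.08 against 7.38 to 7.66. No label names a batch for them, all AAP arrays lay on the other side, and values without AAC replicate 3 are given for some results only. The part of this signal in the results was not tested. Precision was set by the few arrays per group, and in bulk RNA fewer cells of a type and less RNA per cell cannot be told apart.

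The array labels were checked on the plasmid and the host. The fission yeast tpi1 probe set read 9.74, 10.50 and 9.53 in AAC and 12.45, 12.48 and 12.42 in AAP, against 7.29, 6.42 and 6.43 in NC. The 3 strains did not overlap, and AAP was highest, at 5.76 times AAC. With 3 arrays against 3, the exact permutation test cannot give a p under 0.1, and tpi1 was outside the tested set. TPI1 itself was under background on every anaerobic array of both strains, at 5.44, 5.48 and 5.48 in AAC and 5.40, 5.45 and 5.40 in AAP. The a-factor genes MFA1 and MFA2, the receptor gene STE2 and the protease gene BAR1, which mark a cells, had strain means from 8.18 to 10.80, while both alpha-factor genes were under background. Of the other a-cell genes checked, STE6 had means of 9.07 in AAC, 9.06 in AAP and 8.83 in NC. ASG7 was dim, with means of 6.38 in AAC, 5.69 in AAP and 5.73 in NC, and was called higher in AAC (difference 0.69). Of other genes of alpha cells, STE3, the receptor gene for a-factor, was dim but above background, at 5.66 to 6.06 on the anaerobic arrays, and called higher in AAC (difference 0.31). SAG1 is described with the mating genes. MF(ALPHA)1, the source of the leader, read 5.37, 5.40 and 5.31 in AAC and 5.07, 5.14 and 5.09 in AAP.

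DET1, which encodes a regulator of sterol movement within the cell and lies next to TPI1, read 11.25, 11.26 and 11.27 in AAC and 7.09, 7.09 and 6.80 in AAP. NC was near AAC, at 11.83, 11.87 and 11.89. The difference of 4.27 ± 0.0724 (adjusted p = 1.26e-09, limma) was the largest on the arrays, and AAP was the low strain. Among other genes of the cassette and host, the uracil synthesis gene URA3 was lower in AAC (difference -0.46, adjusted p = 1.59e-04, limma), at 7.87, 7.86 and 7.85 in AAC and 8.35, 8.23 and 8.38 in AAP. The translation elongation factor genes TEF1 and TEF2, the first of which lends its promoter to the AAP cassette, have 1 probe set in common, named TEF2 here, which did not pass the test (difference -0.00398 ± 0.0413). The oxysterol-binding protein gene HES1 did not pass either (difference 0.13 ± 0.0854).

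**Figure D1:**
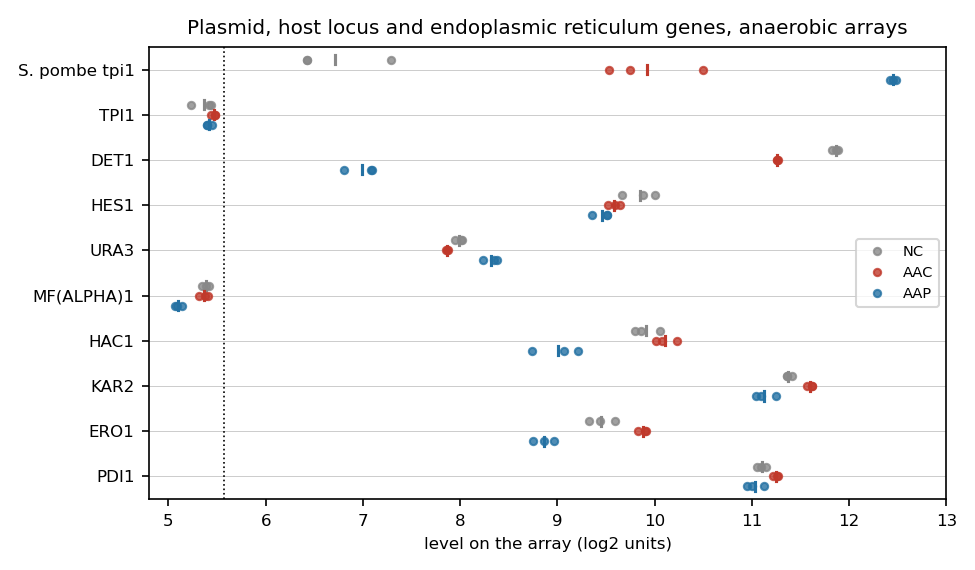
Levels on the 9 anaerobic arrays (log2 units, one point per array, ticks are means of 3) for the plasmid's fission yeast tpi1, host genes and genes of the endoplasmic reticulum in NC, AAC and AAP. The dotted line is the mean background level of 5.57; DET1 is low in AAP and HAC1, KAR2 and ERO1 are higher in AAC than in AAP.

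Across the genome, 1837 probe sets were called (33.4% of those tested). Of these, 766 (13.9%) were higher in AAC and 1071 (19.5%) were lower. Large changes ran one way: 46 probe sets (0.837%) were higher by 2-fold or more and 1 (0.0182%), GCV2, was lower by as much. The arrays of the strains did not overlap for 2750 probe sets (50.0%). The balance of directions rested on the scaling, since centring each array on its median gave 919 higher and 869 lower. Without AAP replicate 1 the count fell to 1166, and without AAC replicate 3 it was 1599.

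The differences followed coding length in part. In the sixth of probe sets with the shortest genes (51 to 600 bases) 20.7% were higher in AAC and 5.85% lower. In the sixth with the longest genes (2283 to 14733 bases) the shares were 4.27% and 42.8%. Short genes were more often called higher and long genes lower, and the correlation of the difference with log2 length across 5498 probe sets, which share the arrays, was -0.333. On ACT1, whose control probe sets cover both ends of the transcript, the 3′ level exceeded the 5′ level by 0.54 to 0.74 in AAC and by 0.73 to 1.12 in AAP. On WBP1 the gap was 1.06 to 1.52 in AAC and 1.67 to 2.01 in AAP, and the part of this gap in the length trend was not tested. A loess curve on coding length was removed from each array as an alternative, which left 801 probe sets higher and 1011 lower. Of the probe sets called at first, 623 of the higher and 689 of the lower were also called with the trend removed. The 46 that were higher by 2-fold or more were all called without the trend and without AAC replicate 3.

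**Figure D2:**
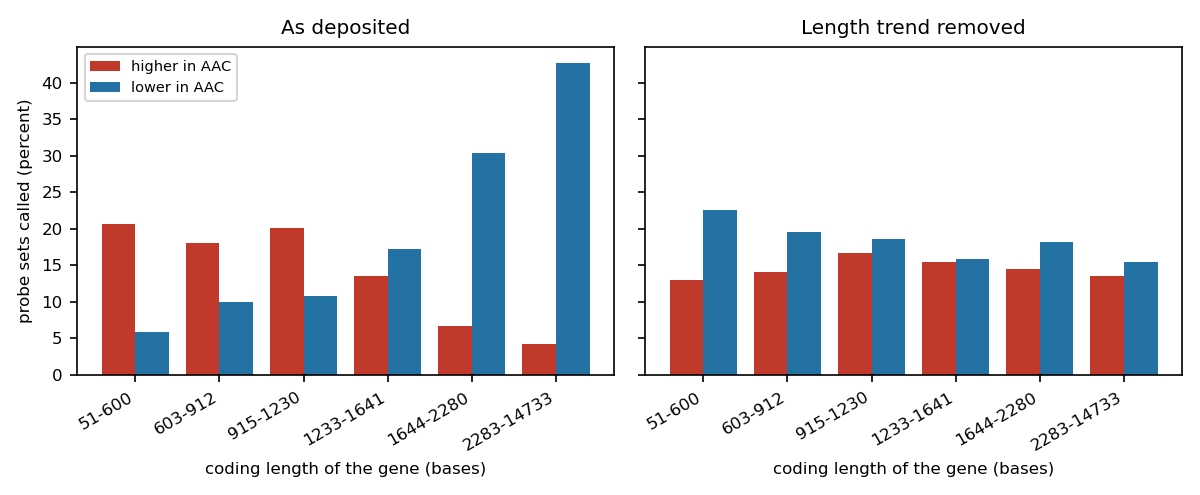
Share of probe sets called higher or lower in AAC than in AAP (percent, adjusted p under 0.05) in 6 bins of coding length, as deposited on the left and with the length trend removed on the right. As deposited, the share called lower climbs from 5.85% in the shortest genes to 42.8% in the longest; with the trend removed it is 22.5% and 15.5%.

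The largest rises in AAC included genes of the endoplasmic reticulum, the cell surface and the stress response. ULI1, a gene induced by unfolded protein in the endoplasmic reticulum, read 8.48, 8.61 and 8.44 in AAC and 6.04, 6.03 and 5.94 in AAP. NC lay beside AAP, at 6.29, 6.19 and 6.13, and the difference was 2.50 ± 0.0609 (adjusted p = 1.85e-08, limma). FLO11, which encodes the flocculin of filamentous and adhesive growth, read 11.34, 11.23 and 11.40 in AAC and 9.36, 9.60 and 9.04 in AAP. Its NC arrays fell between the strains, at 10.20, 10.33 and 10.26, and the difference was 1.99 ± 0.119 (adjusted p = 5.78e-06). YGP1, which encodes a secreted glycoprotein made in stress and starvation, read 9.75, 9.61 and 9.51 in AAC and 7.81, 7.80 and 7.89 in AAP, a difference of 1.79 ± 0.0613. YET2, a relative of the human endoplasmic reticulum protein BAP31, read 7.74, 7.92 and 8.13 in AAC and 6.13, 6.19 and 6.29 in AAP, a difference of 1.73 ± 0.179.

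NCA3, of the SUN family of cell wall proteins, read 7.36, 7.12 and 7.16 in AAC and 5.72, 5.76 and 5.73 in AAP, a 2.78-fold difference. MCR1, which encodes a mitochondrial NADH-cytochrome b5 reductase, read 9.08, 9.01 and 8.93 in AAC and 7.48, 7.56 and 7.62 in AAP, a 2.73-fold difference. The other large rises were in stress genes (HSP12, HSP26, DDR2 and DDR48), mating genes (MFA1 and AGA1), EGO4 and the seripauperin gene PAU5, and ran from 1.33 to 1.46. EGO4 spread most among these within AAC, at 7.54, 7.99 and 8.13 against 6.55, 6.52 and 6.46 in AAP, and its NC arrays at 7.31, 7.85 and 7.94 lay with AAC. PAU5 was read by a probe set of its own and one shared with other seripauperin genes, and both gave 1.33. RGI1, a gene of respiratory growth, read 9.27, 9.47 and 9.21 in AAC and 8.01, 8.04 and 8.10 in AAP, a difference of 1.26 ± 0.0671 (adjusted p = 3.87e-06, limma). Over the 46 rises of 2-fold or more, the NC mean lay between those of AAC and AAP for 37, and it was nearer to AAP for 27 and nearer to AAC for 19.

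The largest falls in AAC included genes of glycine breakdown, carbon uptake and the making of ribosomes. GCV2, the P subunit of glycine decarboxylase, read 7.22, 7.14 and 7.25 in AAC and 8.82, 8.86 and 8.62 in AAP. NC lay between, at 8.01, 7.88 and 7.82, and AAC was lower (difference -1.57 ± 0.0730, adjusted p = 1.80e-06, limma). HXT2, a high-affinity glucose transporter gene, read 9.32, 9.47 and 8.70 in AAC and 10.09, 10.32 and 10.07 in AAP, with AAC replicate 3 the lowest array. NC at 10.36, 10.47 and 10.38 was above AAP on every array, and AAC was lower than AAP (difference -1.0, adjusted p = 0.00208). Without AAC replicate 3 the HXT2 difference was -0.76. ALD6, the cytosolic aldehyde dehydrogenase that makes acetate, read 9.96, 9.78 and 10.10 in AAC and 11.04, 10.99 and 10.76 in AAP, lower in AAC (difference -0.99). MET6, methionine synthase, read 9.86, 9.87 and 9.82 in AAC and 10.68, 10.77 and 10.57 in AAP, and here NC at 10.57, 10.63 and 10.57 lay with AAP.

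Other falls were smaller than 2-fold. The difference was -0.87 for LIA1, which modifies the translation factor eIF5A, -0.78 for the glycogen synthase gene GSY1 and -0.77 for RPG1, a subunit of initiation factor eIF3. It was -0.74 for ARB1, an ATPase of ribosome assembly, -0.74 for RPA135, a subunit of RNA polymerase I, and -0.72 for the ornithine transaminase gene CAR2. It was -0.70 for PLB2, a phospholipase B gene, and -0.67 for the low-affinity iron transporter gene FET4. Without AAC replicate 3 the difference was -0.54 for PLB2 and -0.46 for FET4. For FET4 the AAC arrays at 8.59, 8.85 and 8.10 were spread widely beside 9.07, 9.17 and 9.30 in AAP, with replicate 3 again lowest. The 15 largest falls, chosen among genes whose arrays did not overlap, all kept their call with the length trend removed. Of all 1071 probe sets called lower, the NC mean was nearer to AAC for 742, while of the 766 called higher it was nearer to AAP for 438.

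**Figure D3:**
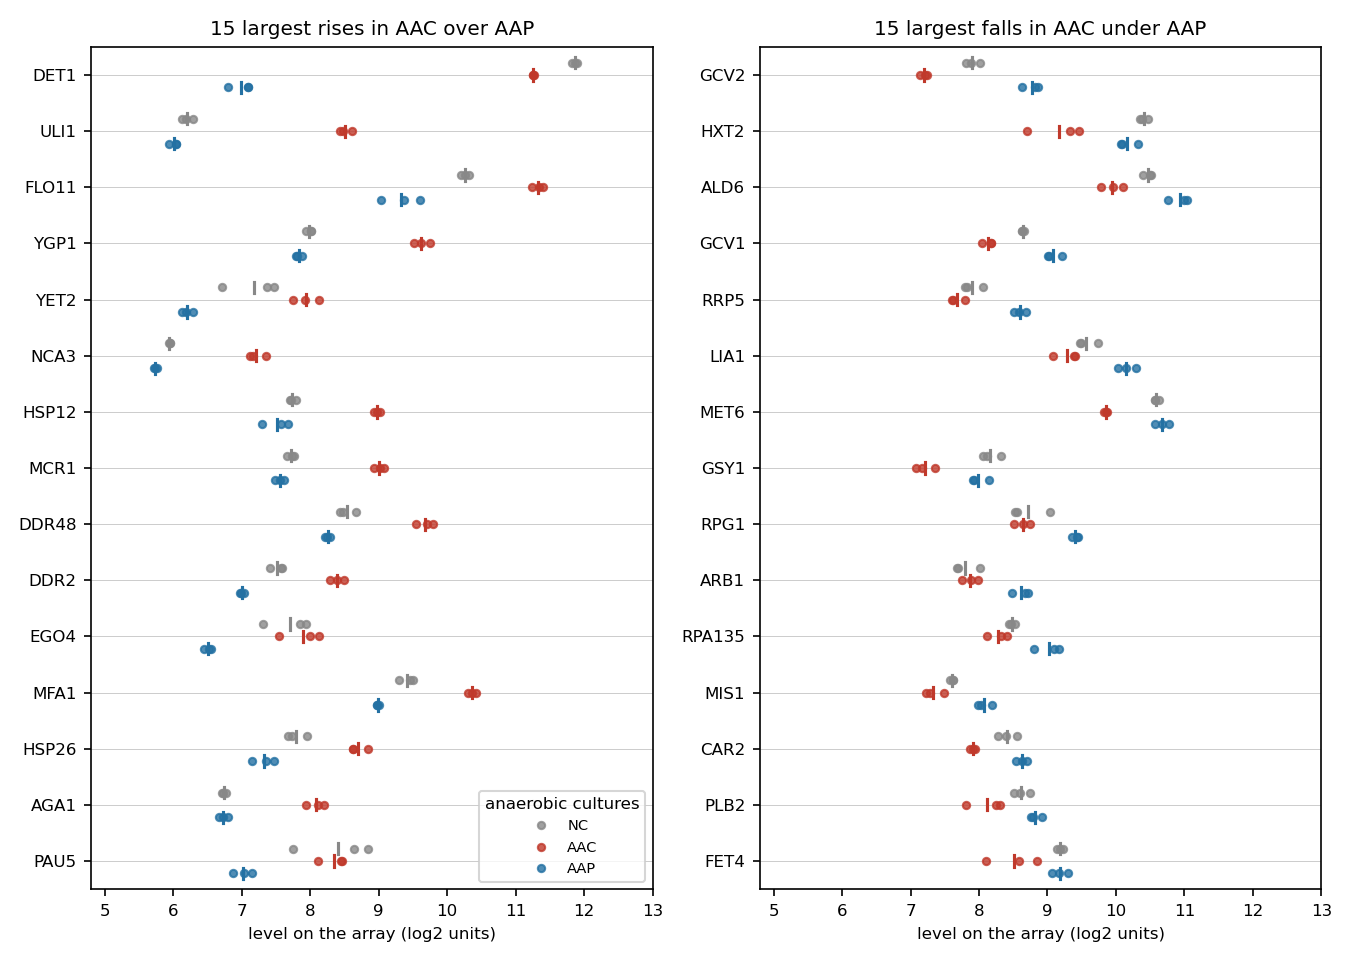
Levels on each anaerobic array (log2 units, ticks are means of 3) of the 15 genes with the largest rise and the 15 with the largest fall in AAC against AAP, in NC, AAC and AAP. PAU5 is drawn from its own probe set. The genes were chosen for AAC and AAP arrays that do not overlap; NC lies with AAP for ULI1 and YGP1, and with AAC for DET1 and EGO4.

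In the endoplasmic reticulum, the folding genes were mostly higher in AAC. The lists for degradation, translocation, N-glycosylation and vesicle transport had calls near the shares over all probe sets. Of 18 probe sets for folding and the unfolded protein response, 10 were called higher (all tested, 13.9%) and 1 lower (all tested, 19.5%). Their median difference was 0.27 beside -0.03 over all tested. HAC1, the transcription factor of this response, read 10.07, 10.01 and 10.23 in AAC and 9.21, 9.07 and 8.74 in AAP and differed by 1.10 ± 0.119 (adjusted p = 1.93e-04, limma). ERO1 read 9.83, 9.92 and 9.90 in AAC and 8.75, 8.96 and 8.86 in AAP and differed by 1.03 ± 0.0756 (adjusted p = 2.03e-05). SIL1, the exchange factor for Kar2, read 8.47, 8.44 and 8.36 in AAC and 7.42, 7.59 and 7.56 in AAP, and MPD1, a relative of Pdi1, read 8.57, 8.60 and 8.42 in AAC and 7.58, 7.78 and 7.89 in AAP. SIL1 differed by 0.90 and MPD1 by 0.78, and both were named for a small p. The abundant chaperone genes rose less: KAR2 read 11.62, 11.61 and 11.57 in AAC and 11.04, 11.25 and 11.10 in AAP, a difference of 0.47 ± 0.0549, and PDI1 read 11.27, 11.26 and 11.22 in AAC and 10.95, 11.13 and 11.0 in AAP, a difference of 0.22 ± 0.0529 (adjusted p = 0.0112) whose call was lost without AAP replicate 1. The exception was EPS1, a membrane-bound relative of Pdi1, lower (difference -0.24) and named, like the other exceptions to a list below, after its value was seen. With the length trend removed its difference was -0.13 (adjusted p = 0.201, limma), and no folding probe set was called lower then or without AAC replicate 3. IRE1 itself did not pass the test, at -0.09.

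Set against the NC strain, whose arrays both comparisons share, 4 folding probe sets were called higher in AAC (all tested, 7.95%) and 0 lower. In AAP, 0 were called higher (all tested, 12.9%) and 7 lower (all tested, 7.82%). HAC1 in NC read 9.80, 9.86 and 10.06 and ERO1 read 9.32, 9.59 and 9.44, so for these 2 genes the NC mean was between the producers. Of 16 probe sets for degradation from the endoplasmic reticulum, 3 were called higher and 2 lower, and of 21 for translocation, 4 and 4. N-glycosylation gave 3 higher and 3 lower of 22, and vesicle transport to the Golgi 7 and 3 of 34. In these lists 13.6% to 20.6% were called higher and 8.82% to 19.0% lower, near the 13.9% and 19.5% over all tested. The medians of these lists were 0.04, -0.07, -0.04 and 0.04. With the length trend removed translocation gave 3 higher and 7 lower, and vesicle transport 4 and 2. Vesicle transport gave 9 and 6 on all 18 arrays and 4 and 3 without AAC replicate 3. Without AAC replicate 3 the medians of translocation and N-glycosylation were 0.06 and 0.04. Leader-processing and vacuolar proteases were called more often both ways, with 4 higher and 4 lower of 13 (30.8% each). With the length trend removed they gave 5 higher and 1 lower. Protein O-mannosyltransferases gave 0 higher and 1 lower of 6, and 0 and 0 with the trend removed.

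The listed genes of the respiratory chain were higher in AAC, although neither strain had oxygen. All 24 probe sets of the list were called higher (all tested, 13.9%), with differences from 0.16 to 1.28 and a median of 0.83. COX5B, the low-oxygen form of a cytochrome c oxidase subunit, was placed in the list of hypoxic paralogs and did not pass the test (difference 0.09, adjusted p = 0.443, limma). SDH3, a subunit of succinate dehydrogenase, read 9.70, 9.71 and 9.54 in AAC and 8.35, 8.35 and 8.42 in AAP, a difference of 1.28 ± 0.0714 (adjusted p = 4.79e-06, limma). QCR10, a subunit of the cytochrome bc1 complex, read 7.92, 8.10 and 8.21 in AAC and 6.81, 6.93 and 6.68 in AAP, a difference of 1.27 ± 0.102 (adjusted p = 3.27e-05). COX13, a subunit of cytochrome c oxidase, read 8.71, 8.71 and 8.53 in AAC and 7.69, 7.76 and 7.66 in AAP, and SDH1 read 7.98, 7.93 and 8.03 in AAC and 7.02, 7.02 and 6.95 in AAP. These genes were named for the smallest p of the list, and of all 766 probe sets called higher 757 had arrays that did not overlap. The list holds short genes, with a median coding length of 454 bases beside 1230 over all tested. With the length trend removed 22 were still called higher and 0 lower, at a median of 0.73.

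The AAC and AAP strains stood on opposite sides of NC in this list. Against the shared NC arrays, 16 were called higher in AAC (all tested, 7.95%) and 0 lower (all tested, 4.86%), with a median of 0.39. In AAP 0 were called higher (all tested, 12.9%) and 15 lower (all tested, 7.82%), with a median of -0.34. Of 17 probe sets of the ATP synthase, 14 were called higher than in AAP (all tested, 13.9%) and 0 lower (all tested, 19.5%). Their median of 0.44 became 0.29 without the length trend. ATP15, the epsilon subunit, read 9.34, 9.43 and 9.45 in AAC and 8.70, 8.70 and 8.70 in AAP, and INH1, the inhibitor of the enzyme's ATPase activity, read 7.79, 7.74 and 8.09 in AAC and 7.04, 7.02 and 7.02 in AAP. The long catalytic subunits did not pass the test, at 0.07 for ATP1 and 0.07 for ATP2. The tricarboxylic acid cycle was mixed, with 5 higher (35.7%) and 2 lower (14.3%) of 14 and a median of 0.06, or 3 and 2 without AAC replicate 3. Its first enzyme, citrate synthase CIT1, read 9.23, 9.04 and 9.27 in AAC and 8.36, 8.33 and 8.02 in AAP, a difference of 0.94 ± 0.0979, whereas the aconitase gene ACO1 read 9.16, 9.02 and 8.99 in AAC and 9.56, 9.64 and 9.42 in AAP and was lower (difference -0.48, adjusted p = 9.32e-04, limma).

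General stress genes were mostly higher in AAC, with 17 of 27 called higher (all tested, 13.9%), 2 called lower (all tested, 19.5%) and a median of 0.31. HSP12, which encodes a small membrane-associated stress protein, read 8.93, 8.98 and 9.02 in AAC and 7.57, 7.29 and 7.68 in AAP, a difference of 1.46 ± 0.0871 (adjusted p = 5.78e-06, limma). HSP26, a small heat shock chaperone gene, read 8.62, 8.84 and 8.62 in AAC and 7.36, 7.16 and 7.48 in AAP. DDR2 and DDR48, genes of the general response to damage and stress, read 8.29, 8.39 and 8.50 in AAC and 7.0, 6.98 and 7.03 in AAP for DDR2 and 9.71, 9.79 and 9.55 in AAC and 8.30, 8.22 and 8.25 in AAP for DDR48. The exceptions were the constitutive cytosolic chaperone genes SSA2 and HSC82, lower in AAC (differences -0.35 and -0.27, or -0.26 and -0.16 with the length trend removed). The catalase gene CTT1 and the disaggregase gene HSP104 did not pass the test, at 0.08 and 0.20. Against the shared NC arrays 14 stress probe sets were called higher in AAC (all tested, 7.95%) and 1 in AAP (all tested, 12.9%). Of 27 probe sets for peroxide and superoxide defence, 11 were called higher (40.7%) and 0 lower. The largest rise was in the peroxiredoxin gene TSA1, at 11.46, 11.48 and 11.18 in AAC and 10.56, 10.74 and 10.65 in AAP.

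Mating genes were higher in AAC too, with 17 of 24 called higher (all tested, 13.9%), 1 called lower (all tested, 19.5%) and a median of 0.29. MFA1, a gene for the pheromone a-factor, read 10.30, 10.36 and 10.42 in AAC and 8.97, 9.0 and 8.98 in AAP, a difference of 1.38 ± 0.0572 (adjusted p = 8.82e-07, limma). The a-agglutinin genes AGA1, for the anchor subunit, and AGA2, for the binding subunit, read 8.20, 8.11 and 7.94 in AAC and 6.73, 6.79 and 6.67 in AAP for AGA1 and 9.18, 9.30 and 9.13 in AAC and 8.12, 8.08 and 8.09 in AAP for AGA2. SAG1, the agglutinin gene of alpha cells, read 7.81, 7.67 and 7.62 in AAC and 6.54, 6.55 and 6.51 in AAP, with NC at 6.61, 6.53 and 6.53. The AAP and NC means were 6.73 and 6.73 for AGA1 and 6.53 and 6.56 for SAG1, and AAC stood above both. The exception was FAR1, which arrests the cell cycle in response to pheromone, lower (difference -0.31, or -0.18 with the length trend removed). Cell wall genes other than the mannoproteins of anaerobic growth moved both ways, with 7 higher and 8 lower of 32 and a median of 0.05. SPI1, a wall protein gene of stress and weak acid, read 7.55, 7.61 and 7.28 in AAC and 6.41, 6.34 and 6.43 in AAP and PIR3, a wall glycoprotein gene, read 7.76, 7.60 and 7.51 in AAC and 6.51, 6.43 and 6.57 in AAP, while EGT2, which acts in separating daughter cells, was lower (difference -0.61).

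Genes that build ribosomes were lower in AAC. Of 59 ribosome biogenesis probe sets, 52 were called lower (all tested, 19.5%) and 0 higher (all tested, 13.9%). The differences ran from -0.93 to -0.14, and the median was -0.40. RRP5, needed to cut the precursor of ribosomal RNA, read 7.79, 7.62 and 7.61 in AAC and 8.69, 8.59 and 8.51 in AAP, lower (difference -0.93, adjusted p = 7.48e-05, limma). NOP58, a core protein of box C/D particles, read 9.84, 9.65 and 9.76 in AAC and 10.34, 10.31 and 10.28 in AAP and NSR1, a nucleolin-like protein gene, read 8.80, 8.79 and 8.63 in AAC and 9.43, 9.29 and 9.31 in AAP. ERB1, of the large subunit pathway, read 7.61, 7.46 and 7.63 in AAC and 8.13, 8.10 and 8.0 in AAP. These 4 were named for the smallest p of the list, and of all 1071 probe sets called lower 1058 had arrays that did not overlap. The list holds long genes (median 1659 bases), and 54 were called lower with the length trend removed, at a median of -0.35. Few differed between AAC and NC, with 2 called lower in AAC (all tested, 4.86%) and 0 higher (all tested, 7.95%), at a median of -0.06. In AAP 46 were called higher than in NC (all tested, 12.9%) and 0 lower (all tested, 7.82%), at a median of 0.32.

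Differences in the ribosomal proteins themselves were small. Of 147 probe sets for 127 cytosolic ribosomal protein genes, many of them near-identical pairs that probes may not separate, 23 were called lower and 0 higher, with a median of -0.06. The largest change among those with the smallest p was in RPS26B, at 10.80, 10.81 and 10.70 in AAC and 11.12, 11.10 and 11.16 in AAP. The number called lower depended on the setting, at 60 with the length trend removed and 13 without AAC replicate 3. Of 70 probe sets of the mitochondrial ribosome, 17 were called lower and 1 higher, and the number lower was 32 with the trend removed and 10 without AAC replicate 3. Against the 19.5% called lower over all probe sets, the deposited values put 15.6% of the cytosolic and 24.3% of the mitochondrial list there.

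Most genes of glycine cleavage and one-carbon metabolism were lower in AAC. Of 12 probe sets, 9 were called lower (all tested, 19.5%) and 0 higher (all tested, 13.9%), with a median of -0.50. With median centring and with quantile normalization 1 was called higher. Besides GCV2, 2 other subunit genes of glycine decarboxylase were lower, GCV1 (the T subunit) at 8.18, 8.05 and 8.18 in AAC and 9.01, 9.03 and 9.21 in AAP and GCV3 (the H subunit) at 9.38, 9.38 and 9.32 in AAC and 10.01, 9.98 and 10.07 in AAP. The gene of the L subunit, LPD1, which other dehydrogenase complexes also use, did not pass the test (difference -0.07). MIS1, the mitochondrial C1-tetrahydrofolate synthase gene, read 7.50, 7.28 and 7.22 in AAC and 8.03, 8.19 and 7.98 in AAP. For GCV1, GCV2 and GCV3 the NC mean lay between the producers. Purine and pyrimidine synthesis was mostly lower, with 15 of 23 called lower (65.2%), 1 higher (4.35%) and a median of -0.32. ADE17, of the last steps to IMP, read 10.16, 10.15 and 10.20 in AAC and 10.78, 10.79 and 10.64 in AAP, and the CTP synthase gene URA7 read 8.18, 8.19 and 8.17 in AAC and 8.83, 8.77 and 8.69 in AAP. The exception was URA10, the minor orotate phosphoribosyltransferase gene, at 7.67, 7.91 and 7.88 in AAC and 6.64, 6.79 and 6.74 in AAP, with NC at 7.58, 7.88 and 7.93. Against the shared NC arrays 15 of the list were called higher in AAP (all tested, 12.9%) and 3 in AAC (all tested, 7.95%).

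In central carbon metabolism the called differences were mostly rises, where over all tested probe sets 13.9% were called higher and 19.5% lower. Of 22 glycolytic and fermentative probe sets 10 were called higher and 1 (PFK1, a subunit of phosphofructokinase, difference -0.22) lower, with a median of 0.12. With the length trend removed 0 were called lower and PFK1 was at -0.08, and with quantile normalization 7 were called higher at a median of 0.07. TDH1, the stress-linked glyceraldehyde-3-phosphate dehydrogenase gene, read 11.90, 11.93 and 12.0 in AAC and 11.30, 11.27 and 11.28 in AAP, the minor alcohol dehydrogenase gene ADH5 read 9.80, 9.83 and 9.54 in AAC and 8.82, 8.82 and 8.85 in AAP and the glucokinase gene GLK1 read 9.48, 9.39 and 9.43 in AAC and 8.82, 8.84 and 8.68 in AAP. The main isoform genes TDH3, PDC1 and ADH1 did not pass the test, at 0.06, 0.06 and 0.12. Phosphoglycerate mutase GPM1, among the brightest probe sets, was higher by 0.33, a call lost with quantile normalization. Glycerol and dihydroxyacetone genes gave 4 higher and 0 lower of 12, with a median of 0.14. Genes of the glyoxylate cycle, gluconeogenesis and beta oxidation gave 7 higher of 26 and 13 with the length trend removed, at medians of 0.08 and 0.16. Storage carbohydrate genes gave 2 higher (11.1%, all tested 13.9%) and 1 lower of 18, and 10 and 1 with the trend removed, at medians of 0.08 and 0.20. The fall was GSY1 (difference -0.78).

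Amino acid synthesis split evenly, with 14 called higher and 14 lower of 56 and a median of -0.06, or 0.01 without AAC replicate 3. The rises included CPA1, for carbamoyl phosphate in arginine synthesis, at 9.53, 9.44 and 9.49 in AAC and 8.58, 8.41 and 8.37 in AAP, ARG1, for argininosuccinate, at 9.74, 9.47 and 9.47 in AAC and 8.76, 8.65 and 8.67 in AAP, and the branched-chain aminotransferase gene BAT2 at 9.97, 9.85 and 9.80 in AAC and 9.17, 9.09 and 9.11 in AAP. MET6, described above, was the largest fall of the list. Thiamine genes gave 8 higher and 1 lower of 19, and iron genes 6 and 5 of 24, at medians of 0.11 and 0.00172. Fitted to all 18 arrays the iron list gave 1 higher and 2 lower, and on 17 arrays 2 and 2. The proteasome gave 6 higher (18.2%, near the share over all tested) and 1 lower (3.03%) of 33. Its median was 0.07, or 0.02 with the length trend removed. Among the rises was the ATPase gene RPT1, at 10.51, 10.54 and 10.39 in AAC and 9.78, 9.76 and 9.72 in AAP.

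Among genes known for growth without oxygen, calls fell in both directions. Over all tested probe sets 13.9% were called higher and 19.5% lower, and the lists here lay on both sides of these shares. The DAN and TIR wall mannoproteins, which replace aerobic wall proteins in anaerobic yeast, gave 1 higher (11.1%) and 2 lower (22.2%) of 9, with a median of -0.16. The rise was PAU24 (difference 1.03), on a shared probe set that is also counted among the seripauperin genes. The falls were TIR4 (difference -0.28) and TIR1 (difference -0.18), on probe sets of their own. Sterol uptake and ester genes gave 1 and 5 of 19 (median -0.05), and paralogs for low oxygen and Rox1 targets 3 and 3 of 12 (median 0.09). Early ergosterol synthesis gave 4 higher and 1 lower of 10 (median 0.22), and late ergosterol synthesis, which needs oxygen, 3 and 0 of 15 (median 0.07). With the length trend removed sterol uptake and ester genes gave 2 higher and 2 lower at a median of 0.00108, the mannoproteins 1 and 4, and late ergosterol synthesis a median of 0.03. Of 16 seripauperin probe sets for 13 genes, several of them shared, 6 were called higher and 0 lower, with a median of 0.46. In AAP 11 of them were called lower than in NC (all tested, 7.82%). In PAU5 the replicates with high ribosomal RNA signal were the lowest of their strain, at 8.46, 8.47 and 8.12 in AAC and 8.84, 8.64 and 7.76 in NC, and on the 6 anaerobic arrays with a low signal 11 of the list were called higher.

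**Figure D4:**
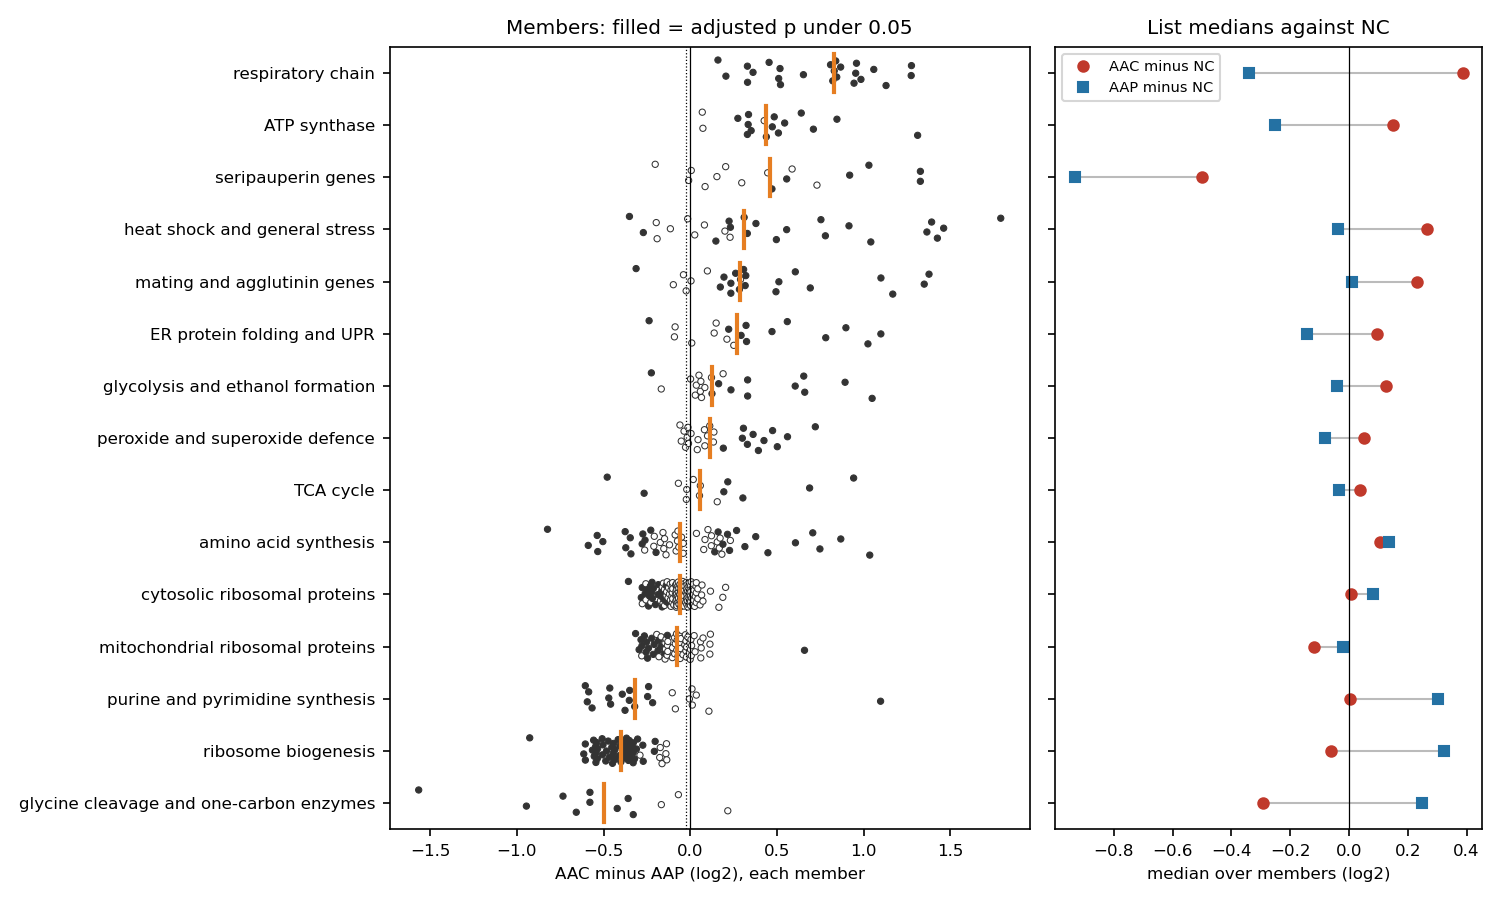
On the left, AAC minus AAP (log2) for each probe set of 15 gene lists, filled where the adjusted p is under 0.05, with the list median in orange and the median of all tested probe sets dotted. On the right, the list medians (log2) of AAC minus NC and AAP minus NC, which share the NC arrays. Respiratory chain members lie to the right of zero and ribosome biogenesis members to the left.

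The same strains were also compared with oxygen, to ask which differences belonged to anaerobic culture. The array labelled AAP aerobic replicate 3 went against its label: its tpi1 level was 9.24 log2 units beside 12.42 and 12.38 in the other AAP aerobic arrays and 8.97 to 9.41 in AAC aerobic. Aerobic values are given from AAP replicates 1 and 2, and interactions with and without that array. Without it 685 probe sets (12.5%) were called higher and 861 (15.7%) lower in AAC in aerobic culture. The interaction, the anaerobic difference less the aerobic one, was called for 195 probe sets on all 18 arrays (3.55%), of which 77 (1.40%) were above 0 and 118 (2.15%) below. Without the odd array it was called for 286 (5.20%), with 107 (1.95%) above 0 and 179 (3.26%) below. This count was unstable: with the length trend removed it was 81 on all arrays and 219 without the odd one, and leaving out single arrays moved it from 69 (without AAP anaerobic replicate 2) to 424 (without AAP aerobic replicate 2).

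Many respiratory chain genes differed more without oxygen than with it. In aerobic culture 7 of 24 probe sets were called higher in AAC, at a median of 0.16, and the interaction was called above 0 for 13 on all arrays and 12 without the odd one. From the shortest sixth of genes to the longest, the median difference over all tested probe sets went from 0.04 to -0.16 without oxygen. In aerobic culture it went from -0.000693 to -0.00575. The listed genes are short, the length trend was not removed from these interactions, and its part in them was not tested. Mating genes had 4 and 6 interactions above 0, and one-carbon genes 4 and 4 below 0. By contrast, ribosome biogenesis was lower in AAC in aerobic culture as well, with 53 of 59 called at a median of -0.33, and the interaction was called for 2 of them, or 1 without the odd array. Stress genes also rose under both conditions, with 16 called higher in aerobic culture and the interaction called above 0 for 2 on all arrays and 3 without the odd one, where it was below 0 for 4. In the folding list 5 were called higher in aerobic culture, and the interaction was called for 0 on all arrays and for 1, HAC1, without the odd one.

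Single genes differed in how far oxygen changed the contrast. FLO11 differed by 1.99 without oxygen and 0.14 with it, ULI1 by 2.50 and 0.69, and SAG1 by 1.17 and 0.05, and their interactions were called in both fits. SAG1 was dim in aerobic culture, with means of 6.26 in AAC and 6.21 in AAP (replicates 1 and 2). DET1 was high in AAC under both conditions, by 4.27 and 3.60. Its interaction was 1.86 (adjusted p = 0.237, limma) on all arrays and 0.67 (adjusted p = 0.00222) without the odd array. YGP1 differed by 1.79 without and 1.99 with oxygen, and its interaction was not called (adjusted p = 0.634 on all arrays and 0.309 without the odd array, limma). HES1 went the other way: the strains differed by 0.13 without oxygen (not called) and by 3.69 with it. Its interaction was -2.33 (adjusted p = 0.158) on all arrays and -3.57 (adjusted p = 1.37e-11) without the odd array, so this call rested on leaving that array out. The acid phosphatase gene PHO5 and the phosphate transporter gene PHO84 did likewise. PHO5 differed by -0.02 without and 1.86 with oxygen, with an interaction of -1.19 (adjusted p = 0.259) on all arrays and -1.88 (adjusted p = 0.00242) without the odd one. PHO84 differed by -0.44 without oxygen (adjusted p = 0.00138, limma, a call lost when all 18 or 17 arrays were fitted), where AAC was at background, and by 1.41 with it, and the interaction was -1.33 (adjusted p = 0.132) and -1.85 (adjusted p = 0.00274). In the phosphate list as a whole 5 were called higher and 5 lower of 26 without oxygen (19.2% each, all tested 13.9% and 19.5%). With oxygen 13 were called higher (all tested, 12.5%) and 1 lower (all tested, 15.7%).

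**Figure D5:**
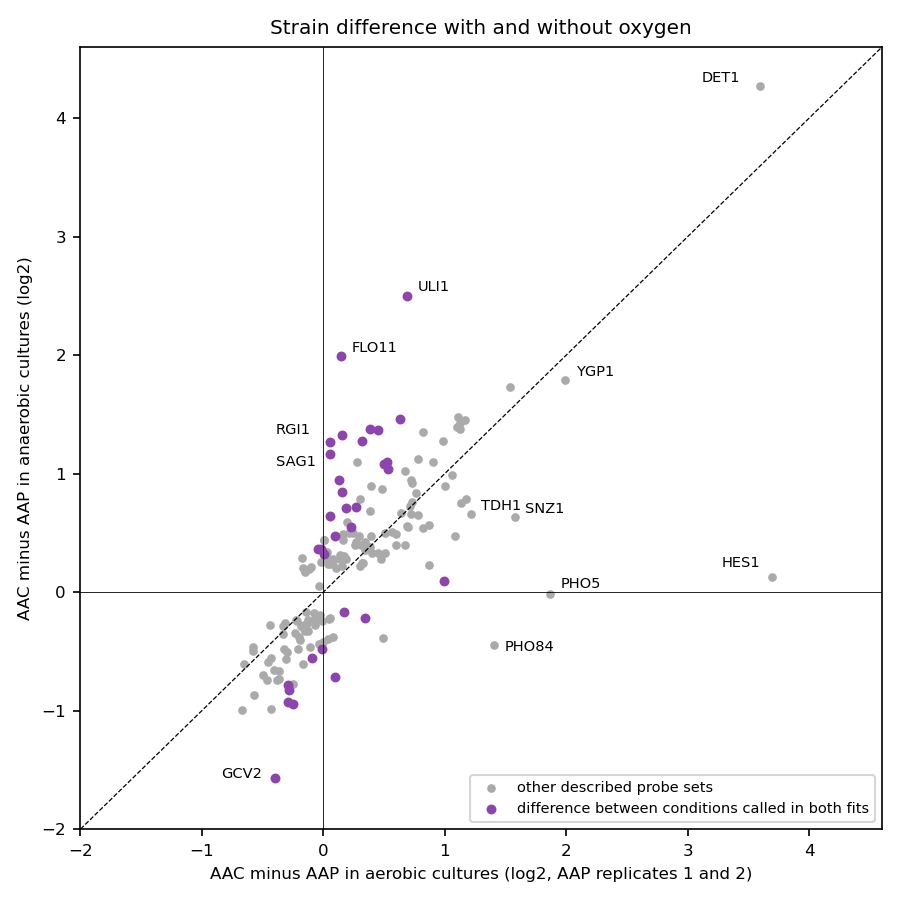
AAC minus AAP (log2) in anaerobic culture against the same in aerobic culture, where AAP is the mean of replicates 1 and 2. Drawn are the named probe sets not shared between near-identical genes, including some that the text does not describe. Purple points had an interaction with adjusted p under 0.05 both on all 18 arrays and without AAP aerobic replicate 3; the dashed line marks equal differences. FLO11 and ULI1 lie far above the line and HES1 far below it.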

How the data were processed

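Total RNA (250 ng) from each culture was biotin-labelled for Affymetrix Yeast Genome arrays, per the labels' protocols. The deposited values were read as log2 from their range of 4.85 to 12.81, 1 per probe set and array; the submitters' processing notes name PLIER and R 2.10.1. How background was corrected, how arrays were normalized and which log base was used is not given in the sources used here. Gene names came from the platform annotation, updated through a current gene table (12 symbols changed). The 10928 probe sets comprised 7244 with 1 gene, 1 with several and 3683 without a gene; 5498 S. cerevisiae probe sets with 1 gene (5449 genes) were tested, of which 128 match several near-identical genes. No coordinates are given, since no build is named for the array, and 96.8% of the gene models are multiples of 3 in length, so lengths are coding lengths.

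The 9 anaerobic arrays, 1 mean per strain, were fitted with limma 3.58.1 in R 4.3.3 (lmFit, eBayes; 6 residual and 3.37 prior degrees of freedom); tests were two-sided with Benjamini-Hochberg adjustment over all tested probe sets. The interaction was fitted to all 18 arrays. The length trend was a loess curve (span 0.5) on log2 length, removed from each array's deviations. The procedure was tested on simulated data.

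Members, lists, tests and named genes were chosen with earlier results of these data known. Named were the 15 largest called differences each way with no overlap of arrays and a higher mean above background, up to 4 called members with the smallest p of a list with at least 3, a set of plasmid, host and folding genes, and the 5 largest interactions each way. Not all of them are described. Same-number AAC and AAP anaerobic arrays had correlations of deviations of -0.210, -0.117 and -0.284, so the numbers were not taken as pairs. Alternatives were quantile normalization, median centring, a background filter, trend and robust eBayes, a replicate block, the length trend, other sets of arrays, and each array left out. Some alternatives that leave out arrays with high ribosomal RNA signal or AAP aerobic replicate 3 with the length trend were chosen after seeing the data.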

Additional observations from a re-analysis of the deposited data

Results flagged for a closer look

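Of 180 named probe sets, 40 had an interaction with adjusted p under 0.05 on all 18 arrays and 34 had it also without AAP aerobic replicate 3, the array that goes against its label; the 26 described here are given. Each value is the anaerobic difference AAC minus AAP less the aerobic one (log2, limma), first on all arrays and then without that array, and the causes were not tested. The length trend was not removed from these values.

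Among genes of the cell surface and the endoplasmic reticulum, ULI1 gave 2.02 and 1.81, FLO11 1.93 and 1.85, SAG1 1.15 and 1.11, and SPI1 0.79 and 0.59. PAU5 gave 1.24 and 1.17 on its own probe set and 1.27 and 1.22 on the shared one. In aerobic culture its own probe set was near the anaerobic background of 5.57 in both strains. The aerobic means were 5.71 in AAC and 5.56 in AAP (replicates 1 and 2), so the interaction is close to the anaerobic difference of 1.33. Among stress and redox genes, HSP12 gave 1.01 and 0.83, HSP26 1.05 and 0.92, and TSA1 0.52 and 0.45. EGO4 gave 1.21 and 1.0, and RGI1 1.30 and 1.21.

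Among mitochondrial genes, COX13 gave 0.82 and 0.81, QCR10 1.09 and 0.96, ATP15 0.63 and 0.53, INH1 0.73 and 0.69, and ATP7, a stalk subunit of the ATP synthase, 0.63 and 0.58. ACO1 gave -0.53 and -0.47. PDH1, of propionate breakdown, gave -0.77 and -0.91, with a difference of 0.09 without oxygen (not called) and 1.0 with it. In amino acid and nucleotide metabolism, CPA1 gave 0.63 and 0.50, URA10 0.76 and 0.57, GCV2 -1.34 and -1.17, GCV1 -0.79 and -0.69, MET6 -0.72 and -0.54, and CAR2 -0.88 and -0.82. GSY1 gave -0.61 and -0.49, and RRP5 -0.78 and -0.64.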

How the results depend on the processing

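Of 175 named probe sets that were called, 138 kept direction and call under every alternative run for them (20, or 19 for 6 left out by the background filter), 37 lost the call under at least 1, and 0 reversed. Of genes described in the report, GPM1, PDI1 and PHO84 were among those that lost it. Without AAP anaerobic replicate 1 the count of called probe sets fell from 1837 to 1166; leaving out 1 array at a time gave 1166 to 2209, and every other alternative stayed within 1.5 times. The medians of the respiratory chain, stress, mating, folding, ribosome biogenesis, one-carbon and nucleotide lists kept their sign with quantile normalization, median centring, the length trend removed and without AAC replicate 3. The replicate block gave 1793 called probe sets, 743 higher and 1050 lower, or 1816 with the length trend removed.

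The interaction count of 195 moved to 81 with the length trend removed (219 without AAP aerobic replicate 3), 68 with the block as well and 218 with the block alone. Removing the trend leaves 65 of the original calls. Leaving out 1 array at a time gave 69 to 424. The cause of these moves was not tested. Uncalled genes changed sign near 0. TEF2 became 0.0265 with median centring, 0.00541 with the length trend removed (with and without the replicate block), 0.0123 without AAP replicate 1 and 0.00741 without AAP replicate 2, and leaving out 1 array at a time gave -0.0317 to 0.0123. TPI1 became -0.00483 with quantile normalization and -0.00455 with the length trend removed (with and without the block). PHO5 became 0.0106 with median centring and 0.0245 without AAC replicate 3 or on the 6 arrays with low ribosomal RNA signal, and leaving out 1 array at a time gave -0.0423 to 0.0245. Genes near background in 1 strain, such as PHO84 in AAC, have differences that may be understated. TPI1 and MF(ALPHA)1 were under background in both strains, so their differences are between background readings.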
